A study of Bos grunniens with 18 samples.

Results

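The genes described here are 8 genes of whole yak (*Bos grunniens*) blood that act on proteins or sugars outside or at the surface of the cell: the matrix metalloproteinases *MMP9*, *MMP8* and *MMP25*, their inhibitors *TIMP1* and *TIMP2*, the metalloproteinases *ADAM8* and *ADAMTS10*, and the sugar-splitting enzyme *MGAM*. They were taken from the deposited table by gene name, and all 8 were found among its 20607 genes. Y-A stands for blood drawn at anestrus, Y-E for blood drawn at estrus and Y-P for blood drawn in pregnancy, with 6 libraries in each stage and 18 in all. The animals were adult female yaks of 4 to 8 years, and the 6 cows sampled had estrus brought on with a progesterone pessary, prostaglandin F2α and GnRH, followed by insemination at a set time. The same cows were followed through the stages, so stage cannot be told apart from the time of sampling or from the hormone treatment that preceded Y-E and Y-P. Counts of cows below take libraries of the same replicate number as the same cow, which the sample titles do not state. No cell type was sorted.

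Matrix metalloproteinases are zinc-dependent enzymes that cut collagen, gelatin and other proteins of the extracellular matrix. Neutrophils, the most mobile phagocytes of blood, store *MMP9* (gelatinase B) and *MMP8* (neutrophil collagenase) in granules and carry *MMP25* (leukolysin) anchored in their membrane. The TIMP proteins bind these enzymes and block them. *ADAM8* is a membrane protease of myeloid cells, *ADAMTS10* is a secreted protease of the matrix that associates with fibrillin microfibrils, and *MGAM* (maltase-glucoamylase) releases glucose from starch and maltose in the gut and is also expressed by granulocytes.

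The libraries held 30247267 to 48401076 counts, and levels are given as CPM, counts scaled to a common library size after TMM normalization. A count of 3, the most that an observed 0 allows at 95% confidence for counting error only, corresponded to 0.0604 to 0.107 CPM. Y-E replicate 6 stood apart from the other Y-E libraries. Genes annotated to the hemoglobin complex took 8.36% of its counts, against at most 0.713% in the other 5 Y-E libraries, 3.1% to 16.7% in Y-A and 0.0272% to 0.376% in Y-P. Its hemoglobin share thus lay within the Y-A range, and the study's lists of libraries hold no entry for it. In *MMP25* (315 CPM) and *ADAM8* (381 CPM) it lay above every Y-P library (at most 270 and 337 CPM). It was also above every Y-A library but replicate 1 (384 CPM in both). Whether its stage label is right was not tested. Y-E replicate 6 was kept in Y-E as labelled, and the comparisons of the 8 genes with Y-E are given with and without it.

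The 8 genes were selected on earlier results of these same comparisons, in part for the stage differences of *MMP9*, *MGAM* and *ADAMTS10*. Their levels, fold changes and calls are therefore a description with no test, and nothing is read from how many of them were called. A gene was called where its edgeR quasi-likelihood test gave an adjusted p under 0.05 and the fold change was at least 2. After the filter on low counts 14508 genes were tested, among them 7 of the 8, since *MMP8* did not pass.

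*MMP9* lies on chromosome 12 at 70343657 to 70350969 on the plus strand (ENSBGRG00000020450), and no other gene of the table overlaps it. Its level was 36.2, 56.5 and 108 CPM (lowest, median and highest of 6 libraries) in Y-A. In Y-E it was 51.3, 163 and 305 CPM, and in Y-P 36.2, 57.6 and 130 CPM. Among the Y-E libraries only replicate 6 lay within the Y-A range, and the other 5 held 145 to 305 CPM, above every Y-A and Y-P library. Against Y-A, the Y-E level was 2.74-fold (log2 1.46 ± 0.36, SE) over 18 libraries, which was not called, and 3.13-fold (1.64 ± 0.31) without Y-E replicate 6, which was. Against Y-E, the Y-P level was 0.41-fold (-1.29 ± 0.36), lower in 6 of 6 cows and called both with and without that library (-1.48 ± 0.31). This call was lost when Y-E replicate 3, the library with the highest *MMP9*, was left out (log2 -1.03). The Y-P and Y-A levels overlapped (0.17 ± 0.35), and 2 of 6 cows had the higher level in Y-P.

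*MGAM* (ENSBGRG00000002093, chromosome 4, 17064 to 116522, plus strand, with no overlapping gene) followed a similar course. Its Y-A libraries held 51.6, 61.3 and 97.0 CPM (lowest, median, highest). The Y-E libraries held 51.0, 129 and 170 CPM, and the Y-P libraries 28.3, 45.5 and 64.7 CPM. Here too the lowest Y-E library was replicate 6, and the other 5 lay between 126 and 170 CPM, above all Y-A and Y-P libraries. The Y-E level was 1.9-fold that of Y-A (log2 0.93 ± 0.25), not called, and 2.13-fold (1.09 ± 0.20), called, without Y-E replicate 6. In Y-P it was 0.365-fold the Y-E level (-1.45 ± 0.25) and lower in 6 of 6 cows, a call made with and without that library and in 18 of 18 fits that left out a library. *MGAM* was also lower in Y-P than in Y-A in 5 of 6 cows, by less than 2-fold (-0.53 ± 0.25), and was not called.

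The membrane-bound proteases *MMP25* and *ADAM8* had higher levels in Y-E than in either other stage, with folds near 2. *MMP25* (ENSBGRG00000024172, chromosome 26, 45091495 to 45102053, minus strand, with no overlapping gene) held 138, 198 and 384 CPM in Y-A. It held 315, 385 and 567 CPM in Y-E and 128, 217 and 270 CPM in Y-P. The Y-E and Y-P libraries did not overlap, while Y-A replicate 1, at 384 CPM, stood within the Y-E range. The log2 difference was 0.89 ± 0.22 between Y-E and Y-A and -0.90 ± 0.22 between Y-P and Y-E, both short of 2-fold and not called. They were 0.95 ± 0.23 and -0.96 ± 0.23 without Y-E replicate 6, again not called.

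*ADAM8* (ENSBGRG00000015313, chromosome 25, 56866268 to 56878243, minus strand) overlaps an unnamed gene on its own strand, so reads of that gene cannot be fully separated from it. Its Y-A libraries held 157, 189 and 384 CPM. The Y-E libraries held 333, 430 and 650 CPM, and the Y-P libraries 150, 279 and 337 CPM. All 3 stages overlapped, with Y-A replicate 1 again the highest of its stage. The Y-E level was 2.1-fold that of Y-A (log2 1.07 ± 0.24) and the Y-P level 0.55-fold that of Y-E (-0.86 ± 0.24), and neither was called, nor were they without Y-E replicate 6 (1.13 ± 0.25 and -0.92 ± 0.25). Leaving out Y-A replicate 1 moved both *MMP25* (log2 1.13) and *ADAM8* (1.29) past the thresholds in Y-E vs. Y-A. In both genes it was cow 1 whose Y-E level lay below its Y-A level, whereas in *MMP9* and *MGAM* it was cow 6.

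**Figure D1:**
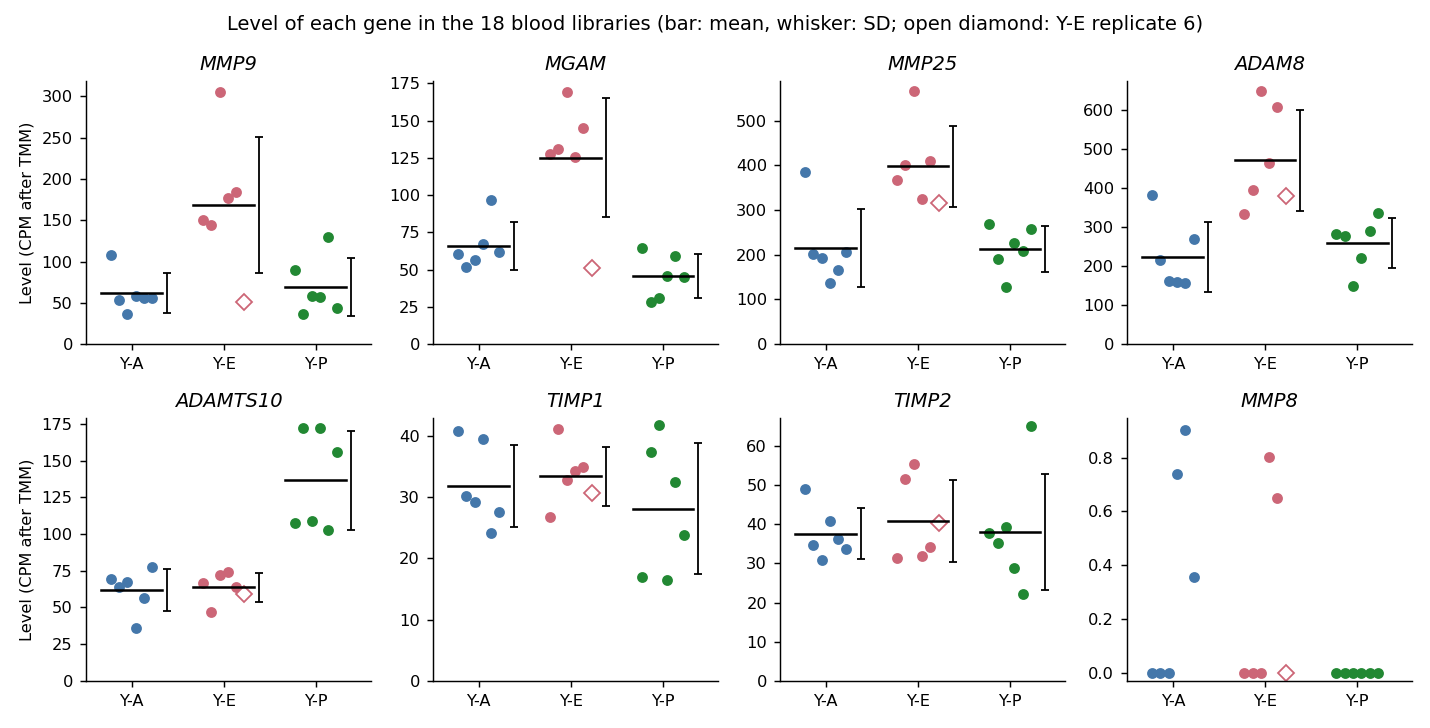
Level of each gene in CPM after TMM scaling (vertical axis, from 0 except for a small margin under *MMP8*) in the 6 libraries of Y-A, Y-E and Y-P, with the mean as a bar, the SD as a whisker and Y-E replicate 6 as an open diamond (no mean for *MMP8*). *MMP9* and *MGAM* were at 126 CPM or more in 5 of 6 Y-E libraries, while *ADAMTS10* was at 103 CPM or more in all 6 Y-P libraries and at most 77.9 CPM elsewhere.

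*ADAMTS10* (ENSBGRG00000025401, chromosome 8, 17880879 to 17899278, minus strand, with no overlapping gene) had another pattern. Its level was 36.2, 65.4 and 77.9 CPM (lowest, median, highest) in Y-A. It was 46.9, 65.3 and 74.4 CPM in Y-E and 103, 132 and 172 CPM in Y-P. Every Y-P library was above every library of the other stages, and the Y-E range lay inside the Y-A range. The Y-P level was 2.21-fold that of Y-A (log2 1.14 ± 0.18) and 2.14-fold that of Y-E (1.10 ± 0.18, and 1.08 ± 0.19 without Y-E replicate 6), higher in 6 of 6 cows each time. Both were called in all 18 fits that left out a library. Within Y-P, replicates 5 and 1 had the lowest *ADAMTS10* (103 and 107 CPM) and the highest *MMP9* (130 and 89.6 CPM). The other stages did not show this opposition. The rank correlation of the 2 genes was -0.94 within Y-P, 0.09 within Y-A and 0.66 within Y-E, each over 6 libraries.

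The inhibitors showed no such steps. *TIMP1* (ENSBGRG00000015795, chromosome X, 93600013 to 93614783, plus strand), which overlaps *SYN1* on the opposite strand, held 24.1 to 40.8 CPM in Y-A, 26.8 to 41.1 CPM in Y-E and 16.5 to 41.7 CPM in Y-P. *TIMP2* (ENSBGRG00000019564, chromosome 19, 11384820 to 11451562, minus strand), which overlaps an unnamed gene on the same strand, held 30.8 to 49.1, 31.4 to 55.5 and 22.1 to 65.1 CPM. Reads of that unnamed gene cannot be fully separated from *TIMP2*. The strand setting of the counts is not stated, so the same may hold for *SYN1* and *TIMP1*. The stages overlapped for *TIMP1* and *TIMP2* in each comparison. Their log2 differences lay between -0.25 and 0.12, each with an SE of 0.21. They lay between -0.27 and 0.12 without Y-E replicate 6.

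*MMP8* (ENSBGRG00000018057, chromosome 13, 84063733 to 84074829, minus strand, with no overlapping gene) was near the limit of detection. It was listed at 0 counts in 13 of 18 libraries, including all 6 of Y-P. Counts of 22, 30 and 10 were listed in Y-A replicates 4, 5 and 6, and of 29 and 22 in Y-E replicates 4 and 5. No library lay between 0 and 10 counts, and the sources used here do not say how the counts were made, so a listed 0 may not be a measured absence and no fold was formed.

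Of the 7 tested genes, 0 were called between anestrus and estrus by edgeR, beside 0% of all tested genes called higher. DESeq2 called 2 of the 7 (*ADAM8* and *MMP9*), beside 0.0516% of the 5814 genes to which it gave an adjusted p. Without Y-E replicate 6, *MGAM* and *MMP9* were called, where 0.0205% of the 14653 genes then tested were called higher. Between anestrus and pregnancy 1 gene, *ADAMTS10*, was called higher, beside 0.345% of all genes. Between estrus and pregnancy *ADAMTS10* was called higher, beside 0.448%, and *MMP9* and *MGAM* were called lower, beside 2.22%. Leaving out Y-E replicate 6 kept these 3 calls, with 0.464% and 2.12% of all genes called higher and lower. With both that library left out and the cow as a block, *MMP25* and *ADAM8* were called lower in Y-P vs. Y-E as well. They joined *MMP9* and *MGAM*, beside 2.56% of all genes called lower. *ADAMTS10* was called higher, and the share of all genes called higher in that fit is not given here. In that fit, which was added after the data were seen, *MMP9* and *MGAM* were called higher from anestrus to estrus, beside 0.0478%. Because the contrasts share their libraries in pairs, the values of a gene in the 3 comparisons are not independent. The median log2 fold change of the 7 genes was 0.89 from anestrus to estrus, 0.02 from anestrus to pregnancy and -0.86 from estrus to pregnancy, beside -0.01, 0.03 and 0.04 over all tested genes. Under scaling by library size alone, the share of all calls that were higher went from 24.0% to 55.6% in Y-P vs. Y-A and from 16.8% to 41.1% in Y-P vs. Y-E, and the median of all genes moved to 0.19 and 0.18.

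**Figure D2:**
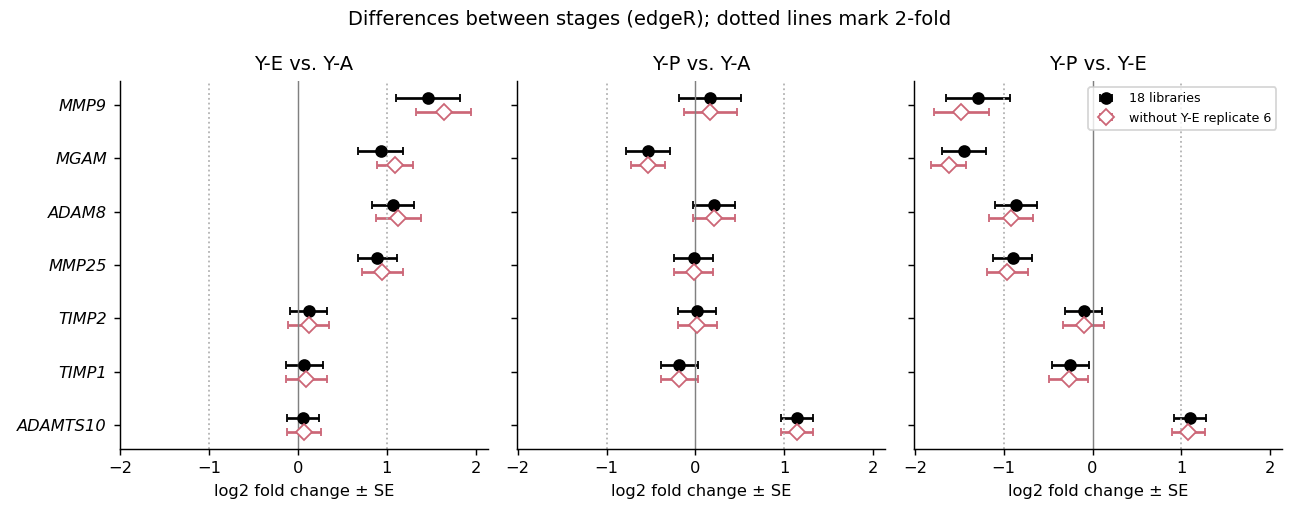
Log2 fold change of the 7 tested genes (horizontal axis, later minus earlier stage, with SE) in the 3 comparisons, over 18 libraries (filled circles) and without Y-E replicate 6 (open diamonds). *MMP9*, *MGAM*, *ADAM8* and *MMP25* lie right of 0 in Y-E vs. Y-A and left of it in Y-P vs. Y-E, and *ADAMTS10* lies beyond the 2-fold line in both comparisons with Y-P.

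Markers of blood cell types moved between the stages as well. Of the 14 neutrophil markers listed, 7 were in the table and none was at 0 in any library. Their summed level was 4470 to 10300 CPM in Y-A, 5840 to 13300 CPM in Y-E and 3470 to 6850 CPM in Y-P, with *CSF3R*, the receptor for granulocyte colony-stimulating factor, giving 40.9% of it. All 7 had a fitted difference above 0 in Y-E vs. Y-A, where 0 were called, and 5 of 7 were called lower in Y-P vs. Y-E, with a median log2 fold change of -1.49, beside 2.22% of all genes. From anestrus to pregnancy 1 of 7 was called lower, beside 158 of the 14508 tested genes. The median was -0.84, with 0 of 7 above 0. Without Y-E replicate 6 the Y-E sums were 7900 to 13300 CPM. In Y-P vs. Y-E 6 of 7 were then called lower, with a median of -1.71, beside 2.12% of all genes. The lowest sum among the Y-E libraries, 5840 CPM, was that of replicate 6, the library lowest in *MMP9* and *MGAM*. In whole blood, fewer cells of a type and less RNA per cell cannot be told apart, and the part of the neutrophil share in these results was not tested. Reticulocyte markers, those of young red cells, moved furthest. Their sum was 439 to 10500 CPM in Y-A, 92.1 to 4470 CPM in Y-E, where 4470 CPM was replicate 6 and the other 5 reached at most 170 CPM, and 39.0 to 122 CPM in Y-P. Of these 4 markers, 4 were called lower from anestrus to pregnancy (median log2 -6.27), beside the same 158 of 14508 genes. From estrus to pregnancy 3 were called lower (-4.10), beside 2.22% of all genes. Without Y-E replicate 6 it was 1 of 4 (-1.46), beside 2.12%. The part of these markers in the results was not tested. Summed platelet markers were at 261 to 350 CPM in Y-A, 228 to 369 CPM in Y-E and 140 to 196 CPM in Y-P. In Y-P vs. Y-E 2 of 3 were called lower (median log2 -1.25), beside 2.22% of all genes. Without Y-E replicate 6 it was again 2 of 3 (-1.34), beside 2.12%. T cell sums were 460 to 567 CPM in Y-A, 458 to 579 CPM in Y-E and 526 to 1020 CPM in Y-P. The Y-P and Y-E ranges overlapped. Of the T cell, monocyte and B cell markers 0 were called in Y-P vs. Y-E, with medians of 0.43, -0.51 and 0.52.

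Set against the summed neutrophil markers of the same library, the stage pattern of the genes was another. *MMP9* came to 5.5 to 13.3 CPM per 1000 CPM of those markers in Y-A, 8.79 to 22.9 in Y-E and 8.18 to 30.3 in Y-P. On this scale the Y-P and Y-E libraries overlapped, with medians of 14.0 and 15.0 (16.5 in Y-E without replicate 6). *MGAM* likewise had medians of 9.29, 12.3 and 12.6 in the 3 stages, and *MMP25* of 32.4, 39.0 and 54.8, where the Y-E medians without replicate 6 were 12.7 and 36.8. *ADAM8* had medians of 32.2, 51.7 (48.8 without Y-E replicate 6) and 63.8, its Y-P median being the highest. The inhibitors also had their highest median in Y-P. It was 5.04, 3.44 and 6.19 in the 3 stages for *TIMP1*, and 5.93, 4.11 and 8.11 for *TIMP2*. Without Y-E replicate 6 the Y-E medians were 3.13 and 4.05. The neutrophil sum itself had medians of 6110, 11000 and 4350 CPM, so a gene of unchanged CPM comes out higher in Y-P on this scale. *ADAMTS10* ranged from 15.9 to 49.6 in Y-P, above all Y-E libraries (4.28 to 10.2) and overlapping the highest of Y-A (5.52 to 17.4). Within stages, the rank correlation of the neutrophil sum with *MMP9* was 0.37 and with *MGAM* 0.38 over 18 libraries, and 0.18 and 0.08 without Y-E replicate 6. It was 0.08 for *MMP25*, -0.05 for *ADAM8* and -0.26 for *ADAMTS10*, and -0.05, -0.11 and -0.36 without that library. For *TIMP1* and *TIMP2* it was 0.33 and 0.25, and 0.30 and 0.29 without that library. With the summed monocyte markers it was 0.30 for *MMP25*, 0.41 for *ADAM8* and 0.60 for *TIMP2* (0.53, 0.54 and 0.63 without Y-E replicate 6). With the T cell markers it was -0.44 for *MMP25* (-0.55) and 0.47 for *TIMP1* (0.46). With the B cell markers it was -0.36 for *MMP25* (-0.53), -0.41 for *ADAM8* (-0.48), -0.10 for *MGAM* (-0.46) and 0.37 for *TIMP1* (0.38). With the neutrophil precursor markers it was 0.34 for *TIMP2* (0.47). With the platelet markers it was 0.44 for *MMP25* (0.34) and 0.46 for *TIMP2* (0.44). Values of the other pairs are not given here. The genes are named here by family rather than by a cell type.

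**Figure D3:**
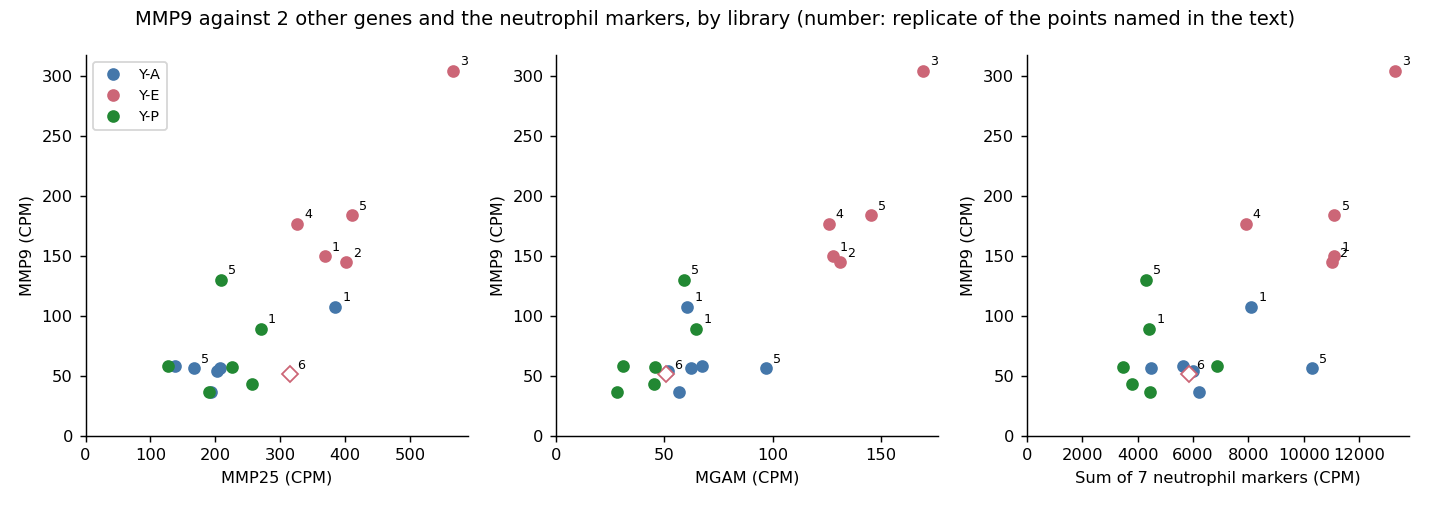
*MMP9* (vertical axis, CPM) against *MMP25*, *MGAM* and the sum of 7 neutrophil markers (horizontal axes, CPM) in the 18 libraries, coloured by stage, with some replicate numbers and Y-E replicate 6 as an open diamond. Y-E replicate 6 lies among the Y-A and Y-P libraries in *MMP9* and *MGAM* but at 315 CPM of *MMP25*, and Y-A replicate 5 has a high neutrophil sum (10300 CPM) with 56.5 CPM of *MMP9*.

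Levels of different genes were compared on the FPKM scale, which corrects for length. The order of the means over 18 libraries was *MMP25* (109 FPKM), *ADAM8* (88.5), *MMP9* (35.8), *TIMP2* (26.9), *ADAMTS10* (21.7), *TIMP1* (14.4), *MGAM* (12.7) and *MMP8* (0.11). *MMP25* was above *ADAM8* in 16 of 18 libraries, and *ADAM8* was above *MMP9* in all 18. *MMP9* and *TIMP2* could not be ordered, since *MMP9* was the higher in 9 of 18 libraries, 5 of them Y-E. *TIMP1* exceeded *MGAM* in 11 of 18 libraries but in only 1 of 6 in Y-E. *TIMP2* was above *ADAMTS10* in all Y-A and Y-E libraries but in 3 of 6 of Y-P, where the mean of *ADAMTS10* (36.2 FPKM) was above those of *TIMP2* (29.0) and *MMP9* (27.9). The same order of means over all stages was found without Y-E replicate 6.

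The FPKM ratio of *MMP9* to *TIMP1* within a library had its highest median in Y-E. It was 0.975, 1.5 and 2.07 (lowest, median, highest) in Y-A. In Y-E it was 1.31, 4.10 and 7.29, with replicate 6 the lowest and the other 5 libraries at 2.77 or more, and in Y-P it was 0.761, 2.08 and 4.14. Without replicate 6 the Y-E ratios lay above all those of Y-A, whereas the Y-P ratios overlapped both stages. *TIMP1* ranged from 9.0 to 19.2 FPKM in Y-P. Its lowest values there, in replicates 1 and 4 (9.27 and 9.0 FPKM), went with ratios of 4.14 and 2.73. Y-P replicate 5 had a ratio of 3.14 at 16.6 FPKM of *TIMP1*, with the highest *MMP9* of that stage (52.0 FPKM). The ratio of 2 transcripts is no measure of the balance of the proteins. *ADAM8* to *MMP25*, by contrast, kept to 0.586 to 0.907 in Y-A, 0.631 to 1.03 in Y-E and 0.684 to 1.02 in Y-P. *ADAMTS10* to *MMP25* was 0.239 to 0.545 in Y-P, above all ratios in Y-A (0.108 to 0.226) and Y-E (0.0702 to 0.137). *MMP9* to *MMP25* was 0.148 in Y-E replicate 6 against 0.328 to 0.494 in the other 5 Y-E libraries.

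**Figure D4:**
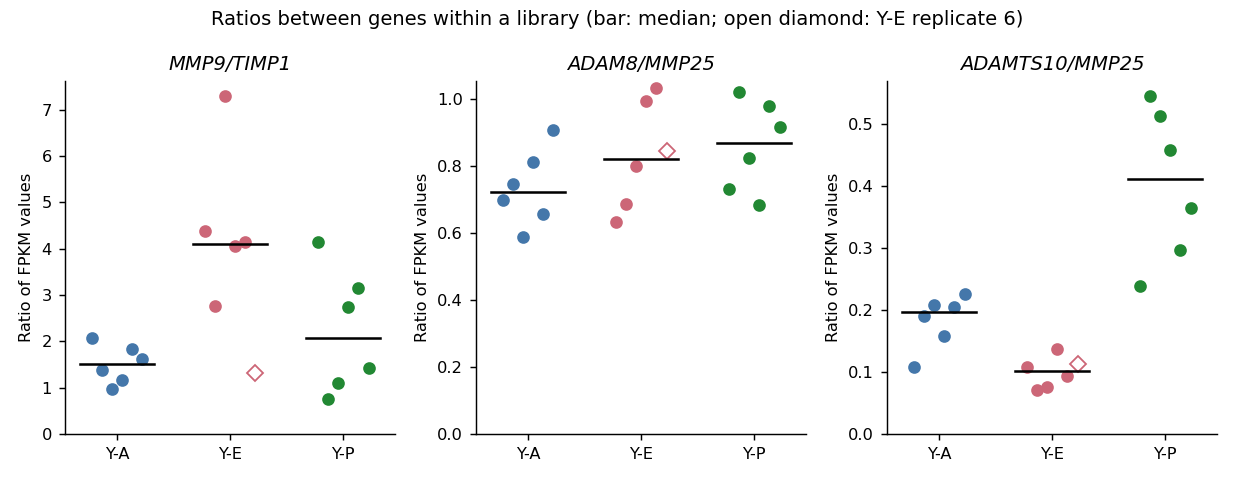
Ratio of the FPKM values of *MMP9* to *TIMP1*, *ADAM8* to *MMP25* and *ADAMTS10* to *MMP25* (vertical axes, from 0) in each library by stage, with the median as a bar and Y-E replicate 6 as an open diamond. The first ratio reaches 7.29 in Y-E, the second overlaps among the stages, and the third is 0.239 or more in Y-P libraries and at most 0.226 in all others.

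How the genes varied together among libraries of the same stage was described by Spearman's rho on deviations from the stage mean (n = 18 libraries, which share cows and scaling, so no p is given). *MMP25* and *ADAM8* were the most alike pair (rho 0.80, and 0.84 without Y-E replicate 6), followed by *MMP9* and *MGAM* (0.69 and 0.59). *MMP9* was less like *MMP25* (0.42) and *ADAM8* (0.43), and near 0 against *TIMP1* (0.09). Beyond the 8 genes, the named gene most like *MMP9* was *THY1* (0.86), a cell-surface glycoprotein, followed by *PROK2* (0.82), a secreted prokineticin, and *ADGRG3* (0.81), an adhesion receptor. *MGAM* was most like *CCDC93* (0.88), *CRYAB* (0.85) and *CDC42EP3* (0.83). Among the genes most like *MMP25* were *MIDN* (0.96) and *ULK1* (0.95), a kinase that starts autophagy. *ADAM8* was most like *RUNX1* (0.94), a transcription factor of blood cell development, then *DEDD2* (0.89) and *ZNF319* (0.88). *ADAMTS10* was most like *ARHGAP39* (0.91), *BRF1* (0.87) and *NOXA1* (0.86). *TIMP1* was most like *PPM1G* (0.87), *SDF4* (0.87) and *ACTB* (0.86), and *TIMP2* was most like *MTCH1* (0.77), *NCSTN* (0.74) and *TPP1* (0.72). Without Y-E replicate 6 the values of *THY1*, *PROK2* and *ADGRG3* against *MMP9* were 0.74, 0.71 and 0.76, and those of the genes most like the other 6 moved by at most 0.09. The genes named were the highest of all named tested genes, so a high rho is in part a result of that choice. Of the 21 most alike genes, only 9 were the same without that library.

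Other genes of the same families were taken from lists of 88 names, of which 60 were in the table and 39 were tested. Between anestrus and estrus 0 of 39 were called by edgeR or by DESeq2, and 3 had an unadjusted p under 0.05, which is 7.69% beside 6.2% of all tested genes. Between anestrus and pregnancy 1 of 39 was called, beside 0.345% of all genes called higher. *MMP11* (stromelysin 3) rose from 1.80 ± 0.28 CPM in Y-A to 3.74 ± 1.01 CPM in Y-P (SD, n = 6 each; log2 1.05 ± 0.21, edgeR adjusted p = 0.0091). Between estrus and pregnancy 1 of 39 was called, or 2.56%, near the 2.22% of all genes called lower. *MMP19* fell from 45.9 ± 17.6 CPM in Y-E to 20.6 ± 4.46 CPM in Y-P (log2 -1.16 ± 0.24, edgeR adjusted p = 0.00386), and its 6 Y-P libraries (15.0 to 25.6 CPM) lay below the 6 of Y-E (27.1 to 72.5 CPM). Without Y-E replicate 6 *MMP19* was at -1.06 ± 0.24 (edgeR adjusted p = 0.009) and *MMP11* was called between estrus and pregnancy as well (1.01 ± 0.22, edgeR adjusted p = 0.00723). Both calls lay close to the 2-fold threshold. *MMP19* came to -0.98 (edgeR adjusted p = 0.0118) without Y-E replicate 3 and to -0.99 (edgeR adjusted p = 0.00536) under scaling by library size alone, and *MMP11* to 0.97 without Y-A replicate 6 and 0.90 without Y-P replicate 2 (edgeR adjusted p = 0.0253 and 0.0239).

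By the adjusted p alone, without the 2-fold threshold, 1 of the 39 was higher and 4 were lower in Y-P than in Y-A, beside 2.22% and 3.61% of all tested genes. Between estrus and pregnancy 2 were higher and 7 lower, beside 5.77% and 8.68%. Among these was *ADAM19*, a membrane protease and at 213 FPKM the most abundant of the other ADAM genes, which fell from 1182 ± 264 CPM in Y-E to 617 ± 75.9 CPM in Y-P (log2 -0.94 ± 0.14, edgeR adjusted p = 0.000556). *A2M*, a broad protease inhibitor of plasma at 137 FPKM, fell by 0.73 ± 0.15 on the log2 scale between Y-E and Y-P (edgeR adjusted p = 0.0041). The log2 differences of *ADAM19* and *A2M* were -0.99 ± 0.14 and -0.78 ± 0.16 without Y-E replicate 6 (edgeR adjusted p = 0.000453 and 0.00417). The next inhibitor by level, *SERPINB1*, which blocks neutrophil serine proteases, did not pass (log2 -0.31 ± 0.13, edgeR adjusted p = 0.115). Neither did *ADAM10* (-0.18 ± 0.15, edgeR adjusted p = 0.465) or *MMP28* (-0.33 ± 0.43, edgeR adjusted p = 0.668). The lysosomal proteases *CTSB* (260 FPKM) and *CTSC* (76.4 FPKM), the latter the activator of neutrophil serine proteases, had log2 differences of -0.37 ± 0.19 and -0.13 ± 0.13 between Y-P and Y-E, with edgeR adjusted p = 0.215 and 0.528. *GAA*, the lysosomal alpha-glucosidase and the only name found of the 5 listed for *MGAM*'s enzyme class, was at 43.4 ± 6.74, 46.9 ± 5.92 and 44.7 ± 8.50 CPM in the 3 stages. Its log2 difference between Y-P and Y-E was -0.07 ± 0.13 (edgeR adjusted p = 0.78), where that of *MGAM* was -1.45 ± 0.25. None of *SERPINB1*, *ADAM10*, *MMP28*, *CTSB*, *CTSC* and *GAA* passed when Y-E replicate 6 was left out, the lowest edgeR adjusted p between Y-P and Y-E being 0.167 for *SERPINB1*.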

How the data were processed

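The authors aligned reads with HISAT2 2.2.1 to the *Bos grunniens* genome, assembled and quantified transcripts with StringTie 2.1.6, and deposited 1 table of 18 libraries with FPKM (fragments scaled by transcript length and library size) and raw counts per gene. How the deposited counts were made is not given in the sources used here. The libraries mark strand, but the counting's strand setting is not stated. In 9424 genes with at least 100 counts in every library, counts and FPKM differed only by gene and library scaling (CV under 1% in 100%). Coordinates were copied from the table, and the authors' methods name the genome only by species and a release label.

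Groups came from the sample titles. Counts were tested with edgeR 4.0.16 in R 4.3.3 (TMM, filterByExpr, quasi-likelihood, stage only, 2-sided, Benjamini-Hochberg over all tested genes), at an adjusted p under 0.05 and 2-fold. SE is the absolute log2 fold change over the root of F. The replicate numbers were taken to mark the 6 cows the methods follow, which the sample titles do not state. Same-numbered libraries correlated, in their deviations from stage means, at 0.106 to 0.687 (Y-A and Y-E), -0.0802 to 0.511 (Y-A and Y-P) and -0.0892 to 0.514 (Y-E and Y-P). Alternatives were a cow block, other normalizations, no low-count filter, DESeq2 1.42.0, limma 3.58.1 on log2(FPKM + 1 or 0.1), and leaving out each library. Within-stage likeness used Spearman's rho on log2(CPM + 1).

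The genes, the lists of related genes and the cell type markers were chosen with earlier results of these data known. All 8 genes are described, as is each related gene called, the top 2 by FPKM of each related group and the 3 named genes most like each. A result among the latter is not reported here. Of the genes, 7332 are named only by an identifier and were left out of the likeness. Markers are given as summed lists: the neutrophil precursor, monocyte, eosinophil and B cell sums spanned 15.0 to 71.2, 391 to 1020, 113 to 345 and 408 to 1820 CPM over all libraries, and the reticulocyte sum 39.0 to 10500 CPM. Sequences were not used here.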

Additional observations from a re-analysis of the deposited data

Results flagged for a closer look

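Of 23 groups of 6 libraries looked at, 4 held a library whose gap to its nearest neighbour was over 0.625 of the group's range (Dixon's 95% critical value). Chance gives about 1 in 20 groups where values are normal and groups independent. Here the groups share the same libraries and the CPM values were not logged, so the 4 cannot be set against that rate. In Y-A, replicate 1 stood high in *MMP9* at 108 CPM (next 58.1, gap 0.694 of the range) and in *MMP25* at 384 CPM (next 206, gap 0.722). Y-A replicate 5 stood high in *MGAM* at 97.0 CPM (next 67.3, gap 0.654). Y-E replicate 6 stood low in *MGAM* at 51.0 CPM (next 126, gap 0.632), and it is the library with 8.36% of counts in hemoglobin complex genes. The part of that share in the *MGAM* level was not tested.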

How the results depend on the processing

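The 21 log2 fold changes of the 7 tested genes were recomputed under 26 alternatives. Of these 546 values, 546 moved by less than 1 SD of the spread between replicates. Small differences that were not called changed sign in some, such as *MMP25* in Y-P vs. Y-A. Between anestrus and estrus the number of the 7 genes called was 0 with edgeR and 2 with DESeq2, 2 without Y-E replicate 6 together with the replicate block, and 0 to 2 when a library was left out (2 without Y-A replicate 1, *ADAM8* and *MMP25*, and 2 without Y-E replicate 6, *MGAM* and *MMP9*). In Y-P vs. Y-E it was 3, counting both directions, or 2 to 3 when a library was left out. It was 5 without Y-E replicate 6 together with the replicate block. The replicate block alone left it at 0, 1 and 3 in the 3 comparisons and changed no other call of these genes. Of the 39 related genes tested, limma on log2(FPKM + 1) called 0 in Y-P vs. Y-A and 0 in Y-P vs. Y-E, and limma on log2(FPKM + 0.1) called 2 in Y-P vs. Y-E (*MMP11* and *MMP14*). Scaling by library size alone called *MMP11* in place of *MMP19* there. When a library was left out the related genes called numbered 0 to 1 in Y-P vs. Y-A (0 without Y-A replicate 6 or Y-P replicate 2) and 0 to 2 in Y-P vs. Y-E (0 without Y-E replicate 3, and 2 without Y-E replicate 4, Y-E replicate 6, Y-P replicate 5 or Y-P replicate 6). Without Y-E replicate 6 together with the replicate block it was 2 (*MMP11* and *MMP19*). Of the 21 most alike genes, 9 were the same without Y-E replicate 6 and 10 with Pearson's r. The causes of these changes were not tested. The 7 tested genes had at least 574 counts in every library.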
